A study of Mus musculus with 20 samples.

Results

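A set of 10 genes of the contractile actin cytoskeleton and its matrix was followed through mouse embryonic stem cells (ESC) sorted into 3 states: Acta2, Tagln, Myl9, Cnn1, Cnn2, Tpm1, Tpm2, Actn1, Cald1 and Thbs1. They were taken by symbol from an RNA-seq table of 29692 genes, in which all 10 symbols were found once. Some of the 10 had been picked for their rise across the states, so their values in these contrasts are given as a description and support nothing by themselves. The ESC were grown in 10% fetal bovine serum with leukemia inhibitory factor and separated by flow cytometry. The gates used 2 pluripotency factors: cells rich in both Nanog and Sox2 made up state 1, cells poor in Nanog but rich in Sox2 state 2, and cells poor in both state 3. A further group is labelled total population, with nothing more said of how it was taken. The cell line, the reporter or stain used for sorting and the passage are not given in the sources used here. Each group had 3 RNA-seq libraries, and 2 further libraries per group were made for small RNA. Whether replicate libraries stem from different cultures is not stated. The deposited tables hold 1 value per gene and group, set by the authors, so no spread between libraries can be shown.

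Non-muscle and smooth muscle cells pull on their surroundings through bundles of actin filaments and myosin II. Alpha-actinin crosslinks the bundles, tropomyosin lies along the filaments, and calponin, caldesmon and transgelin bind them and tune how myosin works on them. Many genes of this set are controlled by serum response factor (SRF), which binds the CArG box in their promoters. Its cofactors of the MRTF family are held in the cytoplasm by free actin monomers and enter the nucleus when actin polymerizes. Smooth muscle cells carry the set at high levels, and so do fibroblasts and other spreading cells under tension. Thrombospondin 1 is a secreted glycoprotein of the matrix that binds integrins and the receptor CD47 and can activate latent TGF-beta.

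The promoter sequences are shown first because the genes are grouped by their link to SRF. The RefSeq promoter table of GRCm38.p6 held 9 windows for 8 of the genes, namely Myl9, Tpm2, Cald1 (with 2 starts), Cnn1, Tpm1, Cnn2, Actn1 and Acta2. Tagln and Thbs1 had no window. The 250 bases before each start were searched for the CArG box, which reads the same way on both strands, so that 1 pass covers both. A strict CArG box was found for Myl9 and Cnn2, and 482 of all 32851 windows of this length (1.47%) held one. With 1 of the 6 central bases allowed to be G or C, a form chosen after the sequences were seen, Acta2 was added and 8.59% of all windows had a match. The matches are shown in capitals, 5′ to 3′ on the strand of the gene. For Myl9 (chr2:156775214-156775407, plus strand) and Cnn2 (chr10:79988350-79988599, plus strand) the bases before the annotated gene are printed. For Acta2 (minus strand) the 30 bases around each match are printed, at chr19:34255438-34255467 and chr19:34255388-34255417.
Myl9: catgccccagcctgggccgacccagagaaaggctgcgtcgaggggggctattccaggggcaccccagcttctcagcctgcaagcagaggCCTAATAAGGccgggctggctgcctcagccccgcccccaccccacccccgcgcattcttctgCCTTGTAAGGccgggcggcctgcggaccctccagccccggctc
Cnn2: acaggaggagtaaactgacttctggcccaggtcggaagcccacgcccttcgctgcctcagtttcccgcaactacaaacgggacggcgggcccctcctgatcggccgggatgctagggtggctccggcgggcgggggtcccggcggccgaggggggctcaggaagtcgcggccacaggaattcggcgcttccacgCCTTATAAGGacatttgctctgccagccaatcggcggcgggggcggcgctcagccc
Acta2, site 1: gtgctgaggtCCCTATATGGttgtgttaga
Acta2, site 2: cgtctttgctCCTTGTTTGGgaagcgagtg

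In Myl9 the strict box lay 161 to 152 bases before the start used in the promoter table and the second, with a central G, 99 to 90 bases before it. That start lies inside the annotated gene span, so both boxes are nearer to the first base of the gene than these distances. The Cnn2 box lay 56 to 47 bases before the start. The Acta2 matches lay 84 to 75 and 34 to 25 bases before the start used in the promoter table, and both lie inside the annotated Acta2 gene span rather than upstream of it. The windows of Tpm1, Tpm2, Cnn1, Cald1 and Actn1 held neither form. No match says only that these letters are not in this window.

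The commonest low value of each RNA-seq column, taken as that of 1 read, was 0.28 to 0.36 in units of normalized signal, and a value of 0 then allowed up to about 3 reads, or 0.84 to 1.08 in these units, for counting error only. The authors' deposited table gives each gene a probability for every pattern of equal and unequal groups; those of all patterns that part a given pair of groups were added up, and the pair was called different from 0.95 upward. Log2 ratios were taken on the value plus 1. Levels of different genes are not compared as amounts of transcript, because the signal is not given per transcript length. Where signal is summed over a list, the genes of high signal carry most of the sum. In RNA from bulk sorted cells, a larger share of cells that express a gene and more RNA per cell cannot be told apart.

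The filament and motor genes were lowest in state 1 and highest in state 3. Acta2 (ENSMUSG00000035783.8; chr19:34240336-34255585 in GRCm38), the alpha actin of smooth muscle, had authors' values of 11.4 in state 1, 123 in state 2, 763 in state 3 and 126 in the total population. State 3 stood 67.1-fold above state 1, and state 2 was level with the total population. Acta2 shares nearly identical coding sequence with other actins, and reads that the authors' counting could not separate may be divided between them. Myl9 (ENSMUSG00000067818.6; chr2:156775408-156781657), a regulatory light chain of myosin II, had 13.5, 152, 239.6 and 52.6 in the same order. Its first step, from state 1 to state 2, was 11.3-fold and its second 1.57-fold, so that state 2 was nearer to state 3 than to state 1. Actn1 (ENSMUSG00000015143.15; chr12:80167542-80260420), the alpha-actinin of stress fibres and focal adhesions, had 4639, 5564, 7852 and 4972. It had the smallest change of the 10 genes, 1.69-fold between state 1 and state 3.

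The filament-binding genes covered a wide range of change. Tagln (ENSMUSG00000032085.5; chr9:45929628-45936058), the calponin-related protein SM22-alpha, had 70.2 in state 1, 978 in state 2, 3445 in state 3 and 425 in the total population. Cnn1 (ENSMUSG00000001349.5; chr9:22099221-22109221), the calponin of smooth muscle, had 10.0, 133, 325 and 51.0. Both rose by similar factors in the first step, 13.9-fold for Tagln and 13.3-fold for Cnn1. Cnn2 (ENSMUSG00000004665.10; chr10:79988600-79995400), the more widely expressed calponin, had 543, 1105, 2409 and 722, and its steps of 2.04-fold and 2.18-fold were nearly equal. Cald1 (ENSMUSG00000029761.16; chr6:34598495-34775469), caldesmon, had 318, 1059, 2926 and 618. Caldesmon was 9.22-fold higher in state 3 than in state 1, yet its second step was not called, with a probability of 0.880 summed from the authors' deposited table.

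Tpm1 (ENSMUSG00000032366.15; chr9:67022590-67049672), a tropomyosin with many splice forms, had 761 in state 1, 2825 in state 2, 8288 in state 3 and 1727 in the total population. Tpm2 (ENSMUSG00000028464.16; chr4:43513726-43523583), beta-tropomyosin, had 196, 371, 623 and 263. The change from state 1 to state 3 was 10.9-fold for Tpm1 and 3.18-fold for Tpm2. The values are per gene, so the muscle and non-muscle splice forms of Tpm1, Tpm2 and Cald1 are not separated. Across the 4 groups, the log2 profiles of Tpm1 and Cald1 were the closest pair among the 10 genes (Euclidean distance 0.19 after centring each profile on its mean), and those of Actn1 and Thbs1 the farthest apart (4.0).

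Thbs1 (ENSMUSG00000040152.8; chr2:118111876-118127133), which encodes the secreted thrombospondin 1, had 46.6 in state 1, 819 in state 2, 3678 in state 3 and 437 in the total population. Its ratio of 78.9 between state 3 and state 1 was the highest of the 10, with a first step of 17.6-fold and a second of 4.49-fold. By log2 ratio of state 3 against state 1, Thbs1 ranked 4 and Acta2 ranked 6 among all 29692 genes, Tagln 16, Cnn1 65 and Myl9 180. Tpm1 ranked 322, Cald1 400, Cnn2 1184, Tpm2 1929 and Actn1 5552. Actn1 thus had the lowest rank of the 10 and Tpm2 the next lowest. Among the 11006 genes at or above 5 on a CPM-like scale, with equal column totals, Actn1 ranked 1506 and Tpm2 619.

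**Figure D1:**
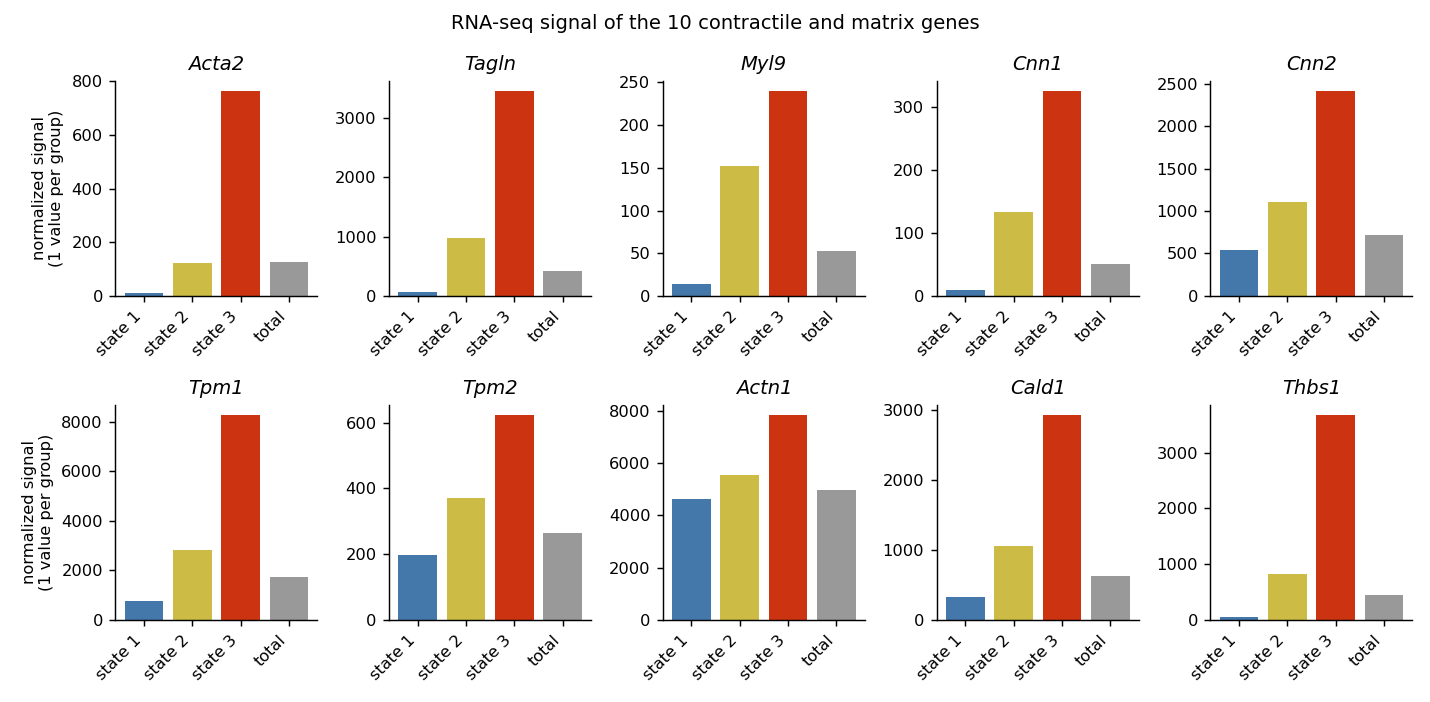
Normalized RNA-seq signal (y axis, linear, own scale in each panel) of the 10 genes in state 1, state 2, state 3 and the total population; each bar is the authors' single value for a group, with no error available. State 3 has the tallest bar in every panel and state 1 the shortest, and for Acta2 the total population (126) reaches the level of state 2 (123).

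The comparison of state 2 with state 1 bears on the Nanog level among Sox2-rich cells. Sums from the authors' deposited table called 9 of the 10 genes higher in state 2 and 0 lower, with 7.11% of all genes called higher and 6.33% lower. The rise itself entered the choice of some genes, so the count is a description. Exchanging state 1 and the total population in the inferred order of the patterns left 5 of 10 called. The median log2 ratio of the 10 was 2.61, against 0 over all genes and -0.024 over the 11006 genes at or above 5 on a CPM-like scale, on which all columns have the same total. Actn1, at a log2 ratio of 0.26, was the gene not called, with a probability of 0.134 from the authors' deposited table. Among the called genes the probability was lowest for Cald1, at 0.955, just over the limit.

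The comparison of state 3 with state 2 bears on the Sox2 level among Nanog-poor cells. In this step 9 of 10 genes were called higher and 0 lower from the authors' deposited table, beside 5.41% and 3.19% of all genes. The median log2 ratio was 1.37, against 0 over all genes. Acta2 had the largest ratio of the 10 (log2 2.62) and Actn1 the smallest (log2 0.50), while Cald1 was not called. In Myl9 the log2 ratio of 0.65 rested on a probability of 0.962 from the authors' deposited table, and in Acta2 on 0.968.

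For state 3 against state 1, all 10 genes were called higher from the authors' deposited table, beside 11.4% of all genes called higher and 9.01% lower. Their log2 ratios ran from 0.76 in Actn1 to 6.27 in Thbs1, with a median of 3.75. The genes differed in how much of this distance was covered in state 2. On the log2 scale, state 2 had covered 0.839 of the distance in Myl9, 0.737 in Cnn1, 0.676 in Tagln, 0.655 in Thbs1 and 0.559 in Acta2. It had covered 0.550 in Tpm2, 0.549 in Tpm1, 0.542 in Cald1, 0.477 in Cnn2 and 0.346 in Actn1. The median over the 10 genes was 0.554, and the 3394 genes called higher in state 3 had a median of 0.588 with quartiles of 0.391 and 0.786.

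**Figure D2:**
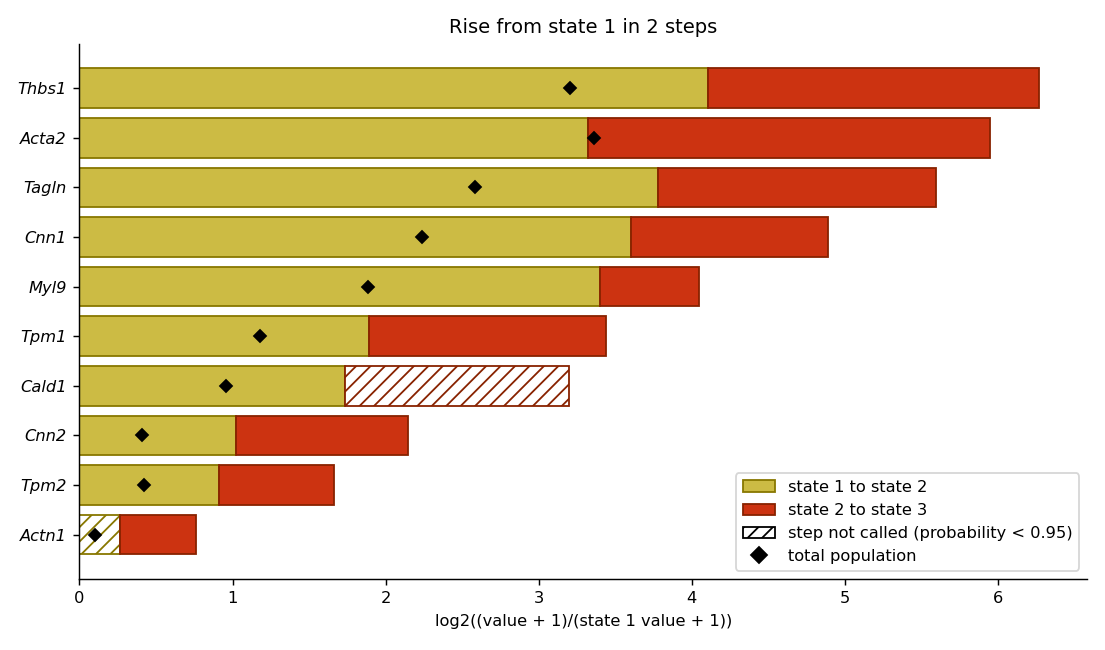
Log2 ratio to state 1 on the value plus 1 (x axis) for each gene (y axis), split into the step from state 1 to state 2 and the step from state 2 to state 3; hatched steps had a summed probability under 0.95 and diamonds mark the total population. The first step makes up most of the bar in Myl9 (0.839) and the smaller part in Actn1 (0.346).

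The group labelled total population was set beside the 3 states. For 9 of the 10 genes its value lay between those of state 1 and state 2, and for Acta2 it was 126 against 123 in state 2. Of the 10 genes, 6 were called lower in state 1 than in the total population from the authors' deposited table, with 0 higher, beside 1.27% of all genes called lower and 0.707% higher. These were Acta2 (log2 -3.36), Thbs1 (log2 -3.20), Tagln (log2 -2.58), Cnn1 (log2 -2.24), Myl9 (log2 -1.88) and Tpm1 (log2 -1.18). State 2 was called higher than the total population in 5 genes and lower in 0, beside 5.82% and 5.3% of all genes. These 5 were Myl9 (log2 1.51), Cnn1 (log2 1.37), Tagln (log2 1.2), Cnn2 (log2 0.61) and Tpm2 (log2 0.49). State 3 was called higher in 10 of 10 (median log2 2.25), beside 10.8% of all genes higher and 8.32% lower. With state 1 and the total population exchanged in the pattern order, 9 genes were called for state 2 against the total population. The comparisons share the same group values and are set side by side only. On the linear scale from state 1 to state 3, the total population stood at 9.61% (Cnn2) to 17.3% (Myl9) of the distance, with a median of 12.2%. The 3394 genes called higher in state 3 had a median of 12.3% with quartiles of 5.12% and 20.2%.

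The 15 patterns of equal and unequal groups in the authors' deposited table show where the genes part. All 4 groups apart was the leading pattern for Tagln (probability 1.00), Cnn1 (0.986), Myl9 (0.962), Tpm2 (0.876) and Tpm1 (0.561). State 2 equal to the total population, with state 1 below and state 3 above, led in the authors' deposited table for Acta2 (0.869) and Thbs1 (0.518). State 1 equal to the total population, with state 2 and state 3 each apart, led there for Cnn2 (0.877) and Cald1 (0.388). For Actn1 the leading pattern in the authors' deposited table set state 3 apart from 3 equal groups (0.866). Thbs1, Tpm1 and Cald1 were thus divided between patterns.

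**Figure D3:**
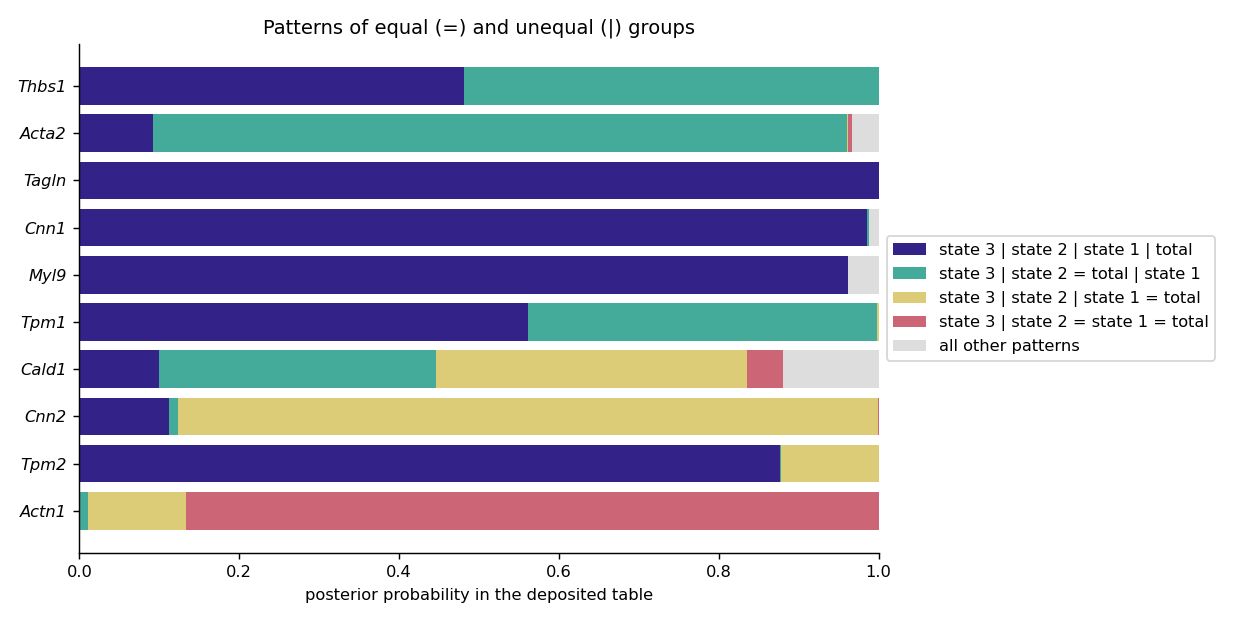
Posterior probability (x axis, 0 to 1) that the authors' deposited table gives to each pattern of equal (=) and unequal (|) groups, by gene (y axis); the remaining patterns are summed in grey. Tagln, Cnn1 and Myl9 have nearly all of it in the pattern with 4 unequal groups, and Actn1 has 0.866 in the pattern that sets only state 3 apart.

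Paralogues of the 10 genes were read beside them; they were named for their relation to a member and not for their values. The striated muscle actins were called higher in state 3 than in state 1: Acta1, skeletal alpha actin, had 9.03 in state 1, 69.2 in state 2 and 392 in state 3. Actc1, cardiac alpha actin, was listed at 0 in state 1, 3.13 in state 2 and 42.7 in state 3, at least 44.5-fold higher against 3 reads in the state 1 group. Of the enteric smooth muscle actin Actg2, 1.28, 1.16 and 2.20 were listed, and it was not called. The cytoplasmic Actb was called higher in state 3 (log2 0.70 against state 1), and Actg1 (log2 0.56) was not called.

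Among the other filament-binding paralogues, Tpm4, a non-muscle tropomyosin, rose from 704 in state 1 to 4587 in state 3 (log2 2.70), and Tpm3 was not called (log2 0.14). Cnn3, the acidic calponin, had 4265 in state 1 and 5733 in state 3 and rose by a log2 ratio of 0.43, less than Cnn1 (4.89) or Cnn2 (2.15). Tagln2 rose by 1.52 and Tagln3, at 0.26, was not called, where Tagln had 5.60. Actn4, the other non-muscle alpha-actinin, was not called (10626 in state 1 and 10615 in state 3), whereas Actn2, the alpha-actinin of striated muscle, rose from 58.5 to 103.6. Myl12a rose (log2 0.87) and Myl12b fell (log2 -0.30), both regulatory light chains of non-muscle myosin II, beside 4.05 for Myl9. These ratios are side by side; differences between paralogues were not tested.

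The lists that follow are to be read beside the shares of all genes called higher and lower in state 3 against state 1, 11.4% and 9.01%, or 22.9% and 21.2% of the 11006 genes on the CPM-like scale. For the first step the shares called higher are 7.11% and 14.9%, and for the second 5.41% and 11.7%. SRF and its cofactors were read from a list of 9 genes. For state 3 against state 1, 4 were called higher, 0 lower and 5 not, with a median log2 ratio of 0.25. Srf had 799 in state 1, 1178 in state 2 and 1559 in state 3 (log2 0.96). Fhl2, a LIM protein that binds SRF, rose from 5.51 to 132 (log2 4.36). Myocd, the myocardin cofactor of smooth and cardiac muscle, rose from 0.32 to 20.7, where the state 1 value is under that of 3 reads (0.96). Elk4, an ETS partner of SRF, rose by 0.32. The MRTF genes, listed under their older symbols, were not called: Mkl1 had 517 in state 1 and 547 in state 3, and Mkl2 745 and 783.

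Of 25 classic SRF targets outside the 10 genes, 19 were called higher in state 3 than in state 1 and 1 lower (median log2 1.25), and in the first step 14 were higher and 1 lower. Tgfb1i1, the focal adhesion protein Hic-5, rose from 11.6 to 262 (log2 4.38). Cyr61, a matricellular CCN protein, rose by 3.39 and Zyx, the stress fibre protein zyxin, by 3.30. The gene that fell was Csrp2, a cysteine-rich LIM protein found in smooth muscle, from 1858 to 969 (log2 -0.94). Fhl2, Srf, Acta1, Actc1, Actg2, Actb, Actg1, Flna, Zyx, Vcl and Tgfb1 stand in more than 1 of the lists used here, so that counts over lists overlap.

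Among 33 other actins, myosins and actin-binding proteins, 22 were called higher in state 3 than in state 1 and 3 lower (median log2 0.82). Flnc, the filamin of muscle, rose from 558 to 8848 (log2 3.99). The 3 that fell were Lima1, Myh14 and Myl12b, with Myh14, a non-muscle myosin heavy chain, at -1.03. For the first step, 9 were higher and 3 lower, and for the second 19 were higher and 0 lower.

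For thrombospondin 1, the family, its receptors and partners were read from a list of 18 genes. Besides Thbs1, 14 of 17 were called higher in state 3 than in state 1 and 0 lower (median log2 1.32). Thbs4, a pentameric thrombospondin, rose from 4.50 in state 1 to 43.1 in state 2 and 78.8 in state 3 (log2 3.86). Thbs2, the closest relative of Thbs1, rose from 6.79 to 24.6 and Thbs3 from 207 to 599.7. The receptor Cd47 had 116 in state 2 and 177 in state 3, a step that was not called (log2 0.61). Against state 1, its value in state 3 was called higher (log2 1.80). The integrin subunit Itga3 rose from 1695 in state 1 to 9870 in state 3 (log2 2.54). The scavenger receptor Cd36 was listed at 0 in state 1, state 2 and the total population and at 1.49 in state 3. Of 18 TGF-beta signalling and target genes, 14 were higher and 0 lower (median 0.72), among them the ligand Tgfb2 (from 14.8 to 209), the receptor Tgfbr2 (from 18.4 to 120) and Tgfb3 (from 3.22 to 21.6).

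A list of genes known from smooth muscle was read beside the 10 genes; some of them, such as Des, Casq2 and Pln, are also genes of other muscle. Leaving out Acta2, Tagln and Cnn1, which stand in the list, 4 of 14 genes were called higher in state 3 than in state 1, 2 lower and 8 not (median log2 0.50). The summed signal of the 14, most of it in state 1 from Smtn (628), Smtnl2 (519) and Des (335), was 1651 in state 1, 1498 in state 2, 2092 in state 3 and 1510 in the total population. Myh11, the myosin heavy chain that defines smooth muscle, had 2.92 in state 1, 4.42 in state 2 and 2.94 in state 3 and was not called. Pln, phospholamban, was under the value of 3 reads in all groups, and the channel subunit Kcnmb1 was listed at 0 in state 1 and at 2.21 in state 3. Mylk, the kinase that acts on Myl9, had 11.9 and 17.4 and was not called. Itga8, an integrin of contractile cells, rose from 12.9 in state 1 to 93.9 in state 3. The other genes called higher were Npnt (18.1 to 98.9), Synpo2 (45.5 to 115) and Smtn (628 to 1063). Those called lower were Smtnl2 (519 to 172) and Casq2 (21.3 to 6.98). No cell type is named from the 10 genes.

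Markers of other cell types were read in the same contrast. Of 15 measured fibroblast markers, 9 were called higher in state 3 than in state 1 and 0 lower, and their summed signal was 446, 879 and 2373 in states 1, 2 and 3 and 620.1 in the total population. Col3a1 had 2.61 in state 1 and 167 in state 3, and Col1a1 23.0 and 827. The fibroblast genes Dcn (0 and 12.4), Lum (0.32 and 1.46), Prrx1 (0.97 and 2.97) and Thy1 (42.2 and 59.3) were not called. Of 14 endoderm markers 9 were higher and 0 lower, with a summed signal of 3603 in state 1 and 16818 in state 3. Of 19 skeletal and cardiac muscle markers 4 were higher, 2 of them the actins named above, and 0 lower (median log2 0.69). Their summed signal was 4383 in state 1 and 3196 in state 3, a fall that no called gene of the list shows. Myh7, another gene of this list, had 12.8 in state 1 and 213 in state 3 (log2 3.95). Myog was listed at 0 in state 2 and state 3, and Myf5 and Myl2 were at or under the value of 3 reads in all groups. Of 11 endothelial and pericyte markers 3 were higher and 1 lower, with a summed signal of 2283 and 2800.4. Of 12 pluripotent markers 0 were higher and 10 lower (median log2 -3.13), with a summed signal of 65276 and 18878. This list includes Nanog and Sox2, on which the cells were sorted, so its count, median and sum are not independent of the gates. The part of these cell types in the values of the 10 genes was not tested.

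The small RNA table, made from 8 further libraries and not named in the rule that chose the genes, lists fragments of the same mRNAs at low values. All 10 genes have a row, with their highest value in state 3 for 8 genes and in state 2 for Myl9 and Cnn1. From the authors' deposited table only Acta2 was called between state 3 and state 1 (probability 0.984), beside 0.552% of all 26278 features called higher and 1.08% lower. Fragments of Acta2 had a value of 0.55 in state 1, 0.88 in state 2, 6.36 in state 3 and 1.43 in the total population. Acta2 was also called between state 3 and state 2 (0.974) and between state 3 and the total population (0.953) in the authors' deposited table, beside 0.304% and 0.392% of features called higher and 0.666% and 0.986% lower. State 3 was thus the group that stood apart, and the values of the other groups were all under that of 3 reads. For state 2 against state 1 no gene of the 10 was called, beside 0.228% of features called higher and 0.468% lower. Against the total population, 0 of 10 were called for state 1 (0.0951% of features higher, 0.0989% lower) and 0 for state 2 (0.167% higher, 0.396% lower). In all, 1.83% of features had, from the authors' deposited table, a probability of at least 0.95 for any difference.

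Thbs1 fragments were listed at 0 in state 1, 4.96 in state 2, 18.1 in state 3 and 2.82 in the total population, with a probability of 0.739 for state 3 against state 1 from the authors' deposited table. A value of 0 in the state 1 column allows up to 1.41, that of 3 reads, so that state 3 and state 2 both lie above it. Tagln had 0.47, 6.2, 14.3 and 2.82 in the same order, and Cnn2 4.48, 5.71, 15.4 and 5.50. Neither was called. The log2 ratio of state 3 against state 1 was above 0 for 9 of 10 genes (median 1.74). The median was 0 over all features and 0.096 over the 3525 features at or above 5 on the CPM-like scale. Myl9, at 0.47 in state 1 and 0.31 in state 3, was the exception on the deposited scale, but both values are under that of 3 reads and the ratio turned to 0.11 when each column was divided by its total. The other 9 genes were not called, among them genes with higher values than Acta2, such as Actn1 with 17.0 in state 1 and 47.8 in state 3.

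**Figure D4:**
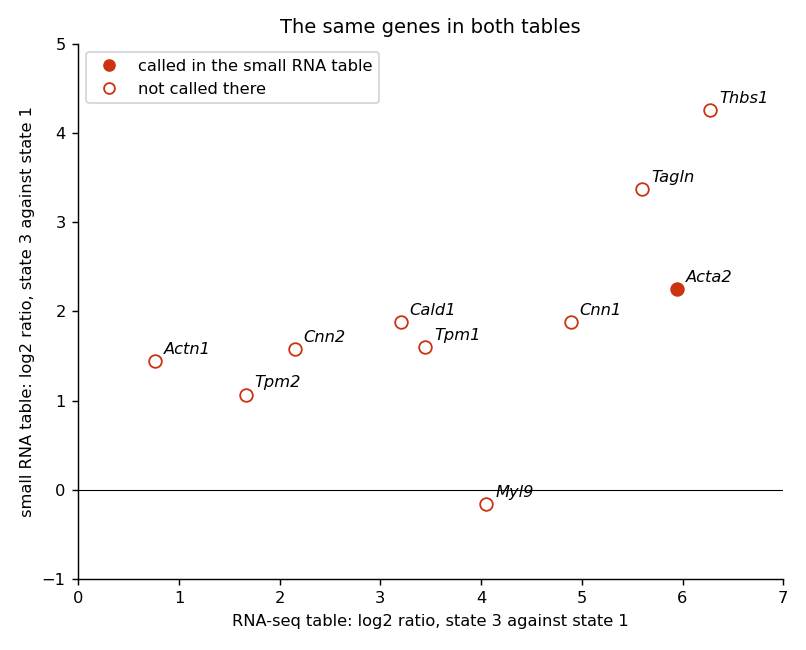
Log2 ratio of state 3 against state 1 on the value plus 1 in the RNA-seq table (x axis) and in the small RNA table (y axis) for the 10 genes; filled points were called in the small RNA table. Acta2 is the filled point, the place of Thbs1 on the y axis (4.26) depends on the pseudocount, since it is listed at 0 in state 1 there, and Myl9 lies below 0 in the small RNA table (-0.17).

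The genes with the most similar profile were found by Euclidean distance between centred log2 profiles over the 4 groups, among 10211 named genes at or above 5 on the CPM-like scale. Nearest to the median profile of the 10 genes were Mex3b (distance 0.22), Gsn (0.26), Cobll1 (0.30), Myh7 (0.32) and Sox3 (0.34). Gsn encodes gelsolin, which severs and caps actin filaments, and had 29.7 in state 1, 140 in state 2, 469 in state 3 and 86.6 in the total population. Myh7 is a myosin heavy chain of slow and cardiac muscle, and Mex3b an RNA-binding protein. Nearest to Thbs1 were Gbp2 (0.33), Tagln (0.54), Shisa6 (0.56), Csf1 (0.66) and Has2 (0.66). Has2, a hyaluronan synthase of the cell surface, had 6.75, 154, 404 and 49.1 in the same order. The likeness rests on 4 values per gene.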

How the data were processed

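RNA for the 12 RNA-seq libraries was depleted of rRNA and the strand kept with dUTP, while adapters were ligated to the small RNA for the 8 others, per the labels. STAR 2.4.1d and RSEM 1.2.30 appear in the submitters' processing notes, as do mm10 and GRCm38, with no role given. In both tables the authors deposited 1 normalized signal per feature and group, and the sources used here do not tell how libraries were scaled and merged. Each feature also has a deposited score per pattern (15 in all), which the name of the RNA-seq table marks as EBSeq output. The name of the small RNA table does not, and its 15 scores were read in the same way.

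The pattern order was inferred: with columns in the order state 3, state 2, state 1, total population, the values of equal groups were closer than those of unequal groups in 94.4% of 1453 genes, and in 90.8% with state 1 and the total population exchanged. In the small RNA table these shares were 93.8% and 78.3% of 161 features. Pattern probabilities that set 2 groups apart were summed and called at 0.95 with Python 3.11.15 and pandas 2.3.3. The summing was tried on simulated data built with the same pattern order. That trial could not test the order or the authors' probabilities. The calls therefore rest on the authors' model and the inferred order. No p-value was computed, since no value per library was used here. Log2 ratios use a pseudocount of 1, with no filter on low values.

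The 10 genes and all lists were chosen with earlier results of these data known. The text names up to 4 called genes of a list, by size of change, or else its 2 most abundant; paralogues, defining markers and members of small counts were named beyond that rule, the markers after their values were seen. Coordinates and promoters are from RefSeq for GRCm38.p6, matched by symbol for 10 of 10 and 8 of 10 genes. Protein sequences were not used here. Some genes of the lists are not reported here.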

Additional observations from a re-analysis of the deposited data

How the results depend on the processing

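No paired analysis was possible because the tables used here hold 1 value per group, and for the same reason no replicate was left out. With the pattern order that exchanges state 1 and the total population, 5 of the 10 genes were called between state 2 and state 1 in place of 9, and 9 for state 2 against the total population in place of 5. A limit of 0.90 left each count of called genes as it was. With a limit of 0.99, 6 genes in place of 9 were called for state 3 against state 2. For state 2 against state 1 there were then 8 in place of 9. Against the total population, 4 in place of 5 were called for state 2 and 9 in place of 10 for state 3. A pseudocount of 5 moved the median log2 ratio of the 10 genes to 2.42 for state 2 against state 1, to 3.58 for state 3 against state 1 and to -1.41 for state 1 against the total population. Of 300 single ratios under 5 pseudocounts and scalings, 30 moved by 0.1 or more and none of the called ratios turned. No called gene of the lists turned under these settings. Among the 11006 genes at or above 5 on the CPM-like scale, 22.9% were called higher and 21.2% lower in state 3 against state 1, and the share called higher was 14.9% in the first step and 11.7% in the second. Pearson correlation in place of distance shared 0 of 5 nearest genes for the median profile and 0 of 5 for Thbs1. Depth limits the fragments in the small RNA table most, where 3 reads are worth 0.93 to 2.22.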

Other observations

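MicroRNAs known from contractile and mesenchymal cells were read in the small RNA table from a list of 16 hairpins (the precursors of mature microRNAs), of which 12 had a row. For state 3 against state 1, 0 were called higher and 3 lower from the authors' deposited table, beside 0.552% and 1.08% of all features. The hairpin mir-143, from a cluster that SRF and myocardin are known to switch on in smooth muscle, fell from 493 in state 1 to 223 in state 2 and 105 in state 3 (log2 -2.22), with 369 in the total population. Its cluster partner mir-145a fell from 29.3 in state 1 to 6.61 in state 3 (log2 -1.99), and mir-199a-1 from 57.4 to 23.0 (log2 -1.28). The direction of these hairpins was opposite to that of Acta2, Tagln and Cnn1 in the RNA-seq table. The columns of the small RNA table differ in their totals; with each column divided by its total, a scaling added after the data were seen, the log2 ratios were -1.25, -1.10 and -0.33. Mir-21a, abundant in mesenchymal cells, had 14545 in state 1 and 40047 in state 3 and was not called (probability 0.033 from the authors' deposited table). The hairpins mir-1a-2, mir-133a-1 and mir-206 of striated muscle had 18.2, 1.42 and 15.8 in state 1 and 39.9, 3.84 and 12.5 in state 3 and were not called. On the column-share scaling 4 hairpins that were not called turned from lower to higher in state 3: mir-206 (log2 -0.31 to 0.60), mir-100 (log2 -0.56 to 0.40), mir-125b-1 (log2 -0.77 to 0.19) and mir-125b-2 (log2 -0.60 to 0.35). The ratio of mir-21a went from 1.46 to 2.44.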
